A study of Rattus norvegicus with 5 samples.

Results

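Hypoxia response genes and glycolytic enzymes were followed in tumours that the rat glioma line C6-L formed in BALB/c nu/nu nude mice. The set holds 36 genes chosen by name, and 35 of them were matched to a probe of the array through the RefSeq accession of the probe. They are 18 glycolytic enzymes with their regulators, 15 of 16 other targets of hypoxia-inducible factor (HIF) and 2 HIF alpha subunits. Egln1 was not matched and was not analysed here. Where a gene had several probes, the brightest over the 5 arrays stood for it. All 35 were among the 18913 features tested, 34 of them well above background on all 5 arrays, and Car12 passed through the irradiated primary alone.

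Of the 5 arrays, 3 read metastatic lung nodules and 1 the primary tumour of an irradiated xenograft. The labels place the nodules and this primary alike at 6 weeks after γ-irradiation. The last read a primary tumour that was not irradiated, sampled 6 weeks after the xenograft. The hosts were 6 weeks of age per the labels, which give no radiation dose and do not say whether the nodules grew in separate animals. Each primary is 1 array, so p-values measure the spread of the 3 nodule arrays alone, which may be technical, and a primary is taken to vary as the nodules do. Since the array carries rat probes and the hosts are mice, host RNA is seen only as far as it binds rat sequence. Values are log2 signals relative to the 75th percentile of each array, called levels here, and a level of 0 is that percentile. Levels of different genes are not set against each other, except in the marker sums, where the brightest probes weigh most.

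When oxygen is short, HIF alpha subunits escape hydroxylation by the Egln prolyl hydroxylases and destruction through Vhl, pair with Arnt and switch on target genes. These genes raise glucose uptake and glycolysis, turn pyruvate away from mitochondria, control pH, adapt collagen processing and remove mitochondria. Poorly perfused tumours, gliomas among them, are known for this response. Tumour cells can also run glycolysis at a high rate when oxygen is present.

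Levels of cell type markers differed between the arrays in the ways shown in the plot of marker sums. The summed level (linear signal, 1 being the 75th percentile of the array) of 22 skeletal muscle markers was 6.52 to 9.34 in the nodules, 179.9 in the irradiated and 43.0 in the non-irradiated primary. In the nodules 13 to 18 of these markers were above background, and Myh1, Myh2, Myh4 and Mybpc1 were dim in all 3, whereas in each primary 21 were above background and Myh1 was dim. The 8 erythroid markers summed to 313.5 to 564.0 in the nodules, 106.1 in the irradiated and 39.4 in the non-irradiated primary. In all 3 nodules Hbb, Hbb-b1, Hba-a1, Alas2 and Slc4a1 lay above both primaries. Klf1 lay below the irradiated primary in all 3, Ahsp overlapped both primaries and Epb42 was dim on all arrays. The 9 lung epithelial markers summed to 67.2 in nodule 1 and 19.7 in nodule 2. In nodule 3, also labelled a lung nodule, they summed to 0.416, against 0.542 and 0.909 in the irradiated and non-irradiated primary. Sftpc did not follow the sum: it read -3.65 and -3.62 in nodules 2 and 3, below both primaries (-2.88 and -1.89). Lamp3 was dim on all arrays. The 11 cardiac markers summed to 51.4 in nodule 3, against 3.27 to 6.95 on the other arrays. Myh6, Myh7, Nppa, Tnnt2 and Myl7 made up most of that sum. In nodule 3 Myl2 was dim, Myl3 (-6.24) lay below both primaries (-2.09 and -3.98), and Ryr2 differed little from the other arrays. Macrophage markers (11 genes) lay at 43.6 to 49.5 in the nodules, 53.2 in the irradiated and 24.8 in the non-irradiated primary. C1qa and C1qb made up most of these sums, and C1qc was dim on all arrays. Single markers were split. In all 3 nodules Cd68, Cd14, Mrc1 and Cd163 lay below both primaries, and Csf1r, Aif1 and Ptprc above both. Endothelial markers (9 genes) lay at 1.31 to 4.30 over the 5 arrays, with Tek, Emcn, Tie1 and Cldn5 dim on all. In all 3 nodules Pecam1, Cdh5, Kdr and Esam lay above both primaries. Flt1 lay below both, and fell against the non-irradiated one (-2.04, limma adjusted p = 0.03). Of 11 glial and glioma markers 7 to 9 were above background on an array, summing to 70.8 in the irradiated primary and 78.2 or more on the others, while Gfap and Olig2 were dim on all 5. Vim was the largest part of each sum. Against the non-irradiated primary Nes and Ncam1 fell (-2.43 and -0.79, limma adjusted p = 0.0364 and 0.0183). S100b and Sox2 also lay below that primary in all 3 nodules, whereas Vim, Cspg4 and Slc1a3 lay above it.

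**Figure D1:**
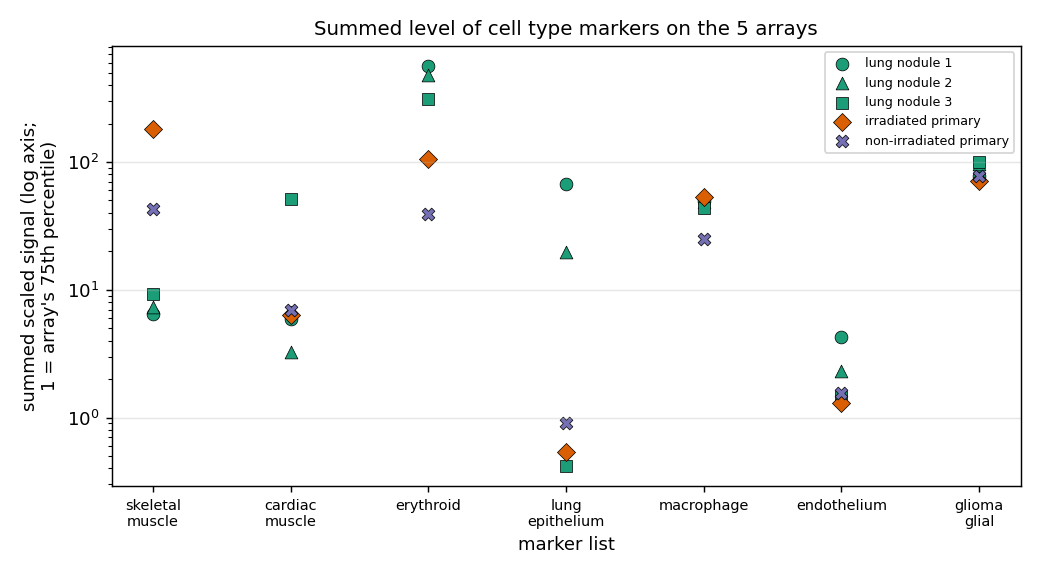
Summed scaled signal of the genes of 7 marker lists on the 5 arrays, on a log axis; each point is 1 array (green: nodules; orange: irradiated primary; purple: non-irradiated primary). Skeletal muscle markers lie highest in the irradiated primary and lowest in the nodules, and lung epithelial markers of nodule 3 lie with the primaries.

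Against the irradiated primary, the nodules held less RNA of hexokinase 2, aldolase A, carbonic anhydrase 9, Bnip3 and the prolyl hydroxylase subunit P4ha1, the 5 members that fell, by 2.02-fold (Aldoa) to 4.20-fold (Car9). No member rose, and 30 of 35 did not pass the limma test. By direction, 2 of 18 glycolytic enzymes and 3 of 15 other HIF targets fell, where 2.81% of all features fell and 0.909% rose. The median log2 difference was -0.59 for glycolytic enzymes and -1.12 for the other HIF targets, against 0.034 over all features. In 29 of 35 members all 3 nodules lay below the irradiated primary, as 31.8% of all features did, and in 4 all 3 lay above it, as 36.2% did. Car12 is among the 29, but it was tested only because of the irradiated primary, so its side follows from the filter. On probes above background on all arrays, which leaves out Car12, the median of the other HIF targets was -1.03. These are bulk samples, in which fewer cells of a type and less RNA per cell cannot be told apart.

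Against the non-irradiated primary the picture was mixed. Car9, the ankyrin repeat gene Ankrd37 and the transcription factor Bhlhe40 fell in the nodules, while muscle-type phosphofructokinase Pfkm, phosphoglycerate mutase Pgam1 and the Myc antagonist Mxi1 rose; 29 of 35 members did not pass. Over all features 8.85% fell and 9.72% rose. The medians were -0.034 for glycolytic enzymes and -0.49 for the other HIF targets, against 0.038 over all features. All 3 nodules lay below this primary in 16 of 34 members, beside 36.8% of all features, and above it in 12, beside 40.1%; Car12, dim in the nodules and in this primary, is left out of these counts. Without Car12 the median of the other HIF targets was -0.42. Both comparisons share the nodules. The plot of log2 differences gives each member with its interval.

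**Figure D2:**
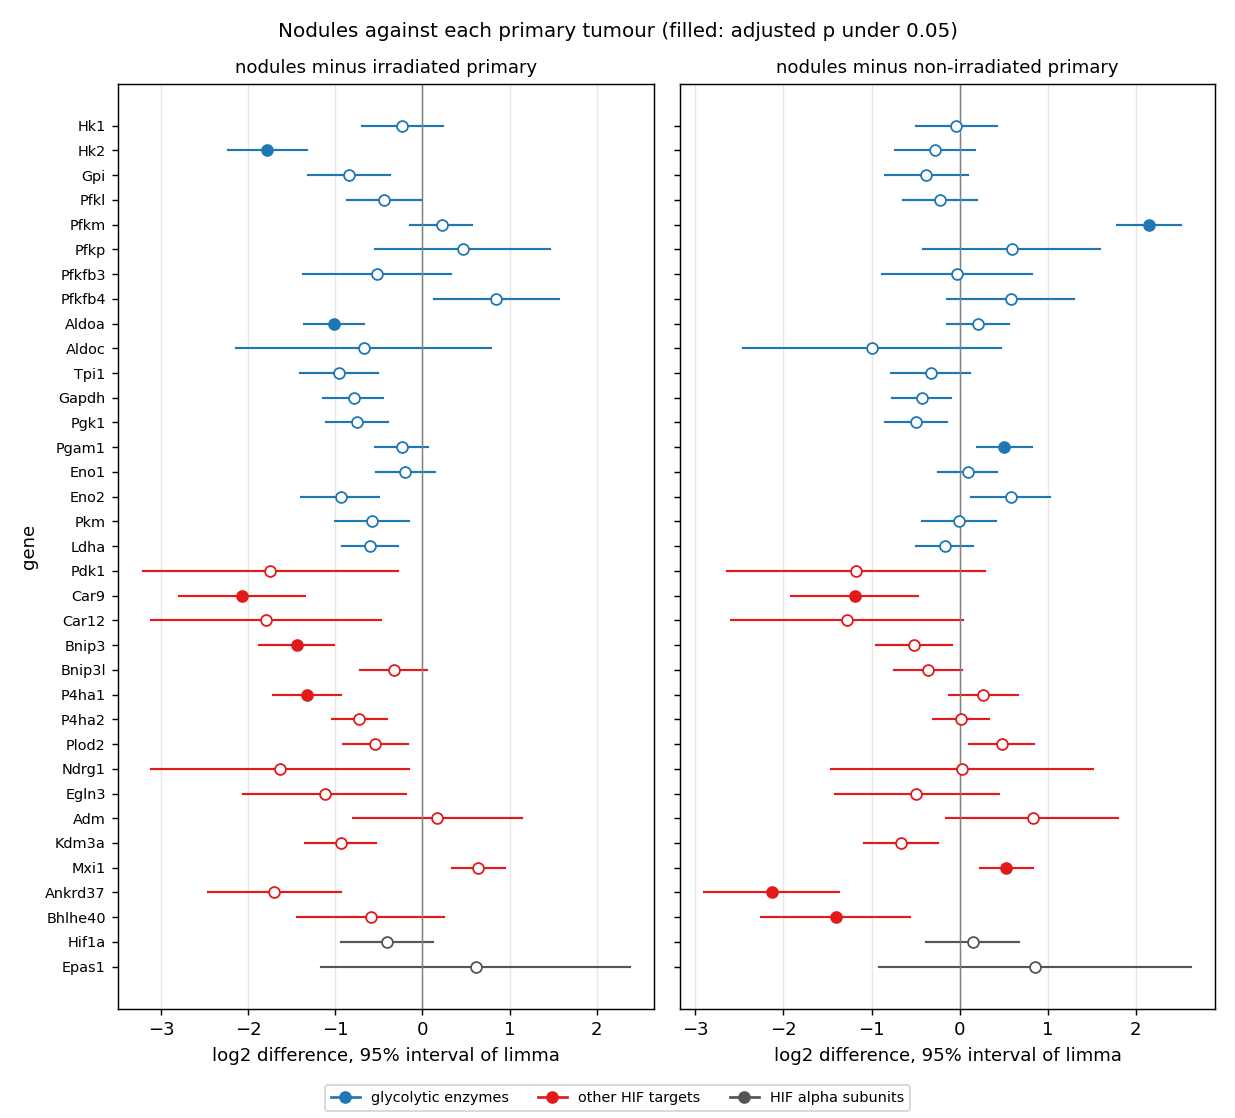
Log2 difference of the 3 nodules from the irradiated primary (left) and from the non-irradiated primary (right) for the 35 members, with the 95% interval of the limma fit; filled points passed at an adjusted p under 0.05. On the left the 5 filled points lie below 0; on the right 3 lie below and 3 above 0.

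Between the primaries, with 1 array each and no test, 29 of 35 members were higher in the irradiated tumour, where 51.4% of all features were. Car12 is among the 29 and in the median of its list. It was well above background on the irradiated primary alone, so its side follows from the filter. Their median log2 difference was 0.45 for glycolytic enzymes and 0.64 for the other HIF targets, against 0.018 over 18448 features. At least 2-fold higher were 7 members (Hk2, Pfkm, Aldoa, Eno2, P4ha1, Plod2 and Ndrg1), beside 9.31% of all features, and 0 were at least 2-fold lower, beside 7.14%. By the same rule 1 to 4 members differed between any 2 nodules. Over all features 3.60 to 9.37% differed so between 2 nodules and 16.5% between the primaries.

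Glucose is first trapped by hexokinases. Hk2, the inducible hexokinase of muscle and of many tumours, had levels of -2.09, -1.88 and -1.93 in nodules 1, 2 and 3, -0.19 in the irradiated and -1.69 in the non-irradiated primary. The irradiated primary stood alone, high above the other 4 arrays. In log2 units Hk2 fell by 1.78 against it in the nodules (SE 0.17, adjusted p = 0.0192 by limma), and lay 0.28 below the non-irradiated primary (difference -0.28, SE 0.17, adjusted p = 0.307). The summed skeletal muscle markers were also highest on the irradiated primary (179.9, against 6.52 to 9.34 in the nodules), and their part in the Hk2 result was not tested. Hk1, the broadly expressed hexokinase, read 3.24, 2.91 and 2.90 in the nodules, 3.24 in the irradiated and 3.06 in the non-irradiated primary. Nodule 1 and the irradiated primary were equal to 2 decimals, and neither difference passed (-0.23, adjusted p = 0.524, and -0.038, adjusted p = 0.898). The 95% interval of the first, -0.69 to 0.24, leaves room for a modest decrease. Gpi, which turns glucose 6-phosphate into fructose 6-phosphate, lay below both primaries in all 3 nodules (differences -0.84, adjusted p = 0.0878, and -0.38, adjusted p = 0.202).

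Phosphofructokinase, the committed step of glycolysis, has a liver, a muscle and a platelet type, of which the muscle type passed a test. Pfkm, the muscle type, had levels of 1.59, 1.45 and 1.40 in the nodules, 1.27 in the irradiated and -0.67 in the non-irradiated primary. The non-irradiated primary stood low and the other 4 arrays lay close together. Pfkm rose 4.44-fold in the nodules against it (log2 difference 2.15, SE 0.14, adjusted p = 0.00872) and was 3.82-fold higher in the irradiated than in the non-irradiated primary. Against the irradiated primary it differed by 0.22 (interval -0.14 to 0.57, adjusted p = 0.428). Skeletal muscle markers summed to 6.52 to 9.34 in the nodules, 179.9 in the irradiated and 43.0 in the non-irradiated primary, and their part in the Pfkm values was not tested. Pfkl, the liver type, read -0.13 to 0.12 in the nodules, 0.48 in the irradiated and 0.25 in the non-irradiated primary, without a call (adjusted p = 0.211 and 0.383). Pfkp, the platelet type, read 5.46 in nodule 1, 4.55 and 4.68 in nodules 2 and 3, and 4.43 and 4.30 in the irradiated and non-irradiated primary. Nodule 1 was the high array of Pfkp, and neither difference passed (0.47 and 0.59, adjusted p = 0.541 and 0.327).

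Pfkfb3 and Pfkfb4 make fructose 2,6-bisphosphate, the activator of phosphofructokinase, and are textbook HIF targets. Pfkfb3 had levels of -2.86, -3.14 and -3.57 in the nodules, -2.67 in the irradiated and -3.16 in the non-irradiated primary. Pfkfb4 read -2.09, -2.65 and -2.30 in the nodules, -3.20 in the irradiated and -2.93 in the non-irradiated primary. All 3 nodules lay under the irradiated primary for Pfkfb3 and over both primaries for Pfkfb4, but no difference passed. Those of Pfkfb4 were 0.85 (SE 0.28, adjusted p = 0.177) and 0.58 (adjusted p = 0.204), and that of Pfkfb3 from the irradiated primary was -0.52 (SE 0.33, adjusted p = 0.427). A dimmer probe of Pfkfb3 was above background on 3 arrays. On it nodule 2 (-5.74) lay above the irradiated primary (-5.86), and the nodules differed from that primary by -0.25.

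Aldolase splits fructose 1,6-bisphosphate. Aldoa, the aldolase of muscle and most other tissues, had levels of 4.33, 4.31 and 4.50 in the nodules, 5.39 in the irradiated and 4.17 in the non-irradiated primary. The irradiated primary was high and the other 4 arrays lay together. Aldoa fell by 1.02 (SE 0.13, limma adjusted p = 0.0365) against it and differed by 0.21 from the non-irradiated primary (adjusted p = 0.324). Skeletal muscle markers were highest on the same array; their part in this result was not tested. Aldoc, the brain aldolase, read 1.43 in nodule 1, 2.65 and 2.74 in nodules 2 and 3, 2.95 in the irradiated and 3.27 in the non-irradiated primary. Nodule 1 stood low, with an SD of 0.74 over the nodules, and neither difference passed (-0.67 and -1.0, adjusted p = 0.546 and 0.268). Without nodule 1 the difference of Aldoc from the non-irradiated primary was -0.57 and passed (adjusted p = 0.015), and without nodule 2 or 3 it did not (adjusted p = 0.291 and 0.228). Leaving out nodule 1 raised the calls over all features from 704 to 3187 against the irradiated and from 3512 to 6406 against the non-irradiated primary.

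Tpi1, which interconverts the triose phosphates, Gapdh, which oxidises them, and Pgk1, which makes the first ATP of the pathway, differed by -0.96, -0.79 and -0.75 from the irradiated primary (adjusted p = 0.0622, 0.0529 and 0.0623). Each of the 3 also lay below the non-irradiated primary in all nodules, by -0.33, -0.43 and -0.49 (adjusted p = 0.236, 0.0834 and 0.0683). Ldha, which turns pyruvate into lactate, differed by -0.60 (adjusted p = 0.0786) and -0.17 (adjusted p = 0.386). Against the irradiated primary Tpi1, Gapdh and Pgk1 did not pass in 7, 7 and 6 of the 9 other processing settings. Over these settings their limma adjusted p-values ran from 0.0378 to 0.124, 0.0380 to 0.112 and 0.0416 to 0.115.

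Pgam1, the next enzyme, had levels of 6.99, 6.93 and 6.97 in the nodules, 7.20 in the irradiated and 6.45 in the non-irradiated primary. The non-irradiated primary was the low array, and Pgam1 rose by 0.51 (SE 0.12, adjusted p = 0.0473) against it. Against the irradiated primary it differed by -0.24 (adjusted p = 0.318). Eno1, the common enolase, read 5.97, 6.00 and 6.13 in the nodules, 6.23 in the irradiated and 5.94 in the non-irradiated primary, all within a narrow band. Eno2, the neuronal enolase, read 1.65, 1.51 and 1.30, with 2.43 in the irradiated and 0.90 in the non-irradiated primary. The nodules lay between the primaries, which differed 2.88-fold, and neither Eno2 difference passed (-0.94 and 0.58, adjusted p = 0.0631 and 0.0792). A second probe of Eno2 gave a like order with smaller differences (-0.63 and 0.34).

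Pyruvate kinase Pkm closes the pathway, and its mRNA is spliced into a muscle form and a form typical of proliferating cells. The brighter of its probes had levels of 3.82, 3.67 and 3.99 in the nodules, 4.41 in the irradiated and 3.84 in the non-irradiated primary. A dimmer probe with the same RefSeq accession read -2.61, -3.42 and -3.08 in the nodules, 0.010 in the irradiated and -2.35 in the non-irradiated primary. On the dimmer probe the irradiated primary was 2.36 log2 units above the non-irradiated primary and the nodules differed from it by -3.04, against 0.57 and -0.58 on the brighter probe. The files do not say which splice form either probe reads, and skeletal muscle markers were highest on the same array, whose part was not tested. The brighter probe did not pass (adjusted p = 0.136 and 0.967), while the mean of both probes passed against the irradiated primary (log2 difference -1.81, adjusted p = 0.0311). The several probes of Pfkl, Aldoc, Tpi1, Gapdh and Mxi1 had differences of the same sign in both nodule comparisons.

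**Figure D3:**
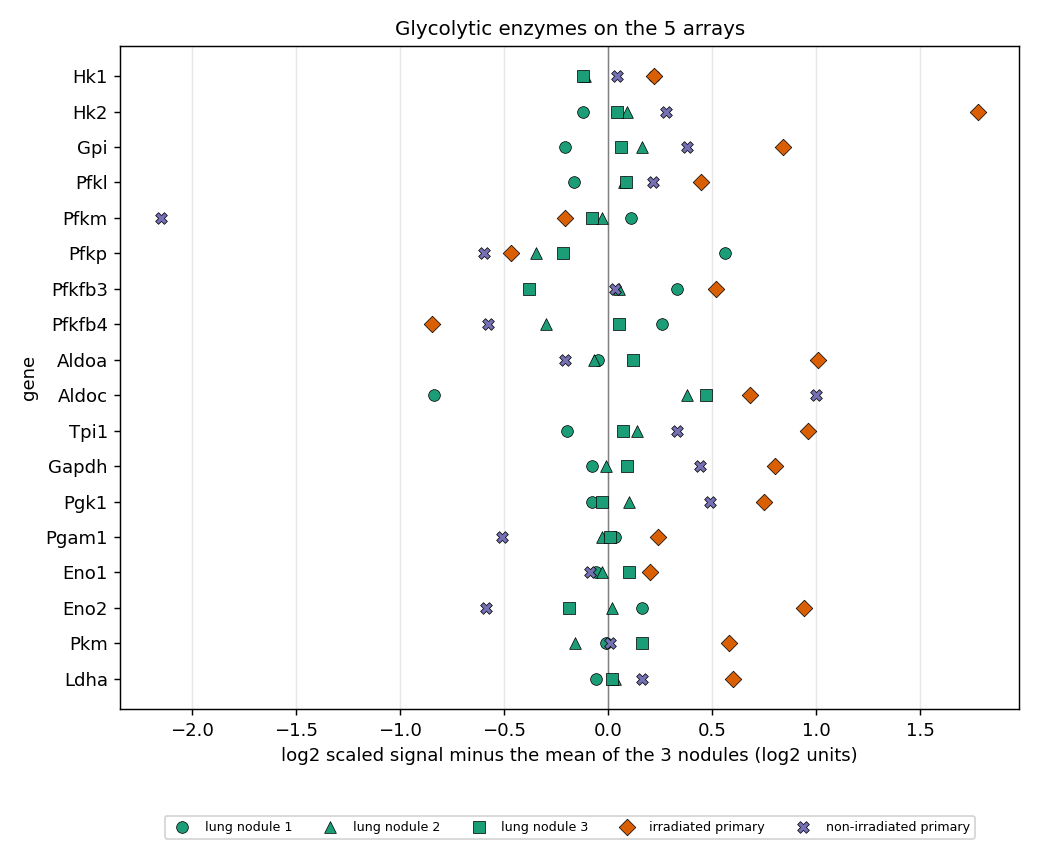
Level of the 18 glycolytic genes on each array minus the mean of the 3 nodules, in log2 units; each point is 1 array (green: nodules 1 to 3; orange: irradiated primary; purple: non-irradiated primary). The irradiated primary lies to the right of the nodules for 15 genes, farthest for Hk2, and the non-irradiated primary lies far to the left for Pfkm.

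Among the other HIF targets, those of pH control and pyruvate handling come first. Car9, the tumour-associated carbonic anhydrase that exports acid and is a classic hypoxia marker, had levels of -1.43, -0.97 and -0.80 in the nodules, 1.00 in the irradiated and 0.12 in the non-irradiated primary. All 3 nodules lay under both primaries. Car9 fell 4.20-fold against the irradiated (log2 difference -2.07, SE 0.28, limma adjusted p = 0.037) and 2.28-fold against the non-irradiated primary (-1.19, SE 0.28, adjusted p = 0.0476), as the 1 member called in both. Car12, its membrane relative, read -7.52, -6.60 and -7.47 in the nodules, -5.39 in the irradiated and -5.91 in the non-irradiated primary. Only the irradiated primary was well above background for Car12, 2.33-fold above the nodules by its approximate bound, so its other levels have no order. Its fitted difference did not pass (adjusted p = 0.139). Pdk1, the kinase that shuts pyruvate out of the mitochondrion, read -4.10 in nodule 1, -2.94 and -2.81 in nodules 2 and 3, -1.54 in the irradiated and -2.11 in the non-irradiated primary. The nodules were under both primaries but spread widely (SD 0.71), and neither difference passed (-1.75 and -1.18, adjusted p = 0.175 and 0.205). Without nodule 1, which raised the calls over all features as given for Aldoc, Pdk1 passed in both comparisons (adjusted p = 0.00741 and 0.026). Without nodule 2 (adjusted p = 0.31 and 0.262) or nodule 3 (adjusted p = 0.215 and 0.187) Pdk1 did not pass.

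Bnip3 and Bnip3l are paralogues that mark mitochondria for removal. Bnip3 had levels of 2.17, 2.39 and 2.51 in the nodules, 3.79 in the irradiated and 2.87 in the non-irradiated primary. The nodules lay under both primaries, and Bnip3 fell by 1.44 (SE 0.17, adjusted p = 0.0283) against the irradiated one, with a difference of -0.52 (adjusted p = 0.094) from the other. Bnip3l read 4.0, 3.86 and 3.72 in the nodules, 4.19 in the irradiated and 4.22 in the non-irradiated primary. Its differences of -0.33 and -0.36 did not pass (adjusted p = 0.285 and 0.158), and the interval of the first, -0.72 to 0.057, does not reach the change of Bnip3.

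Of the 3 collagen-modifying hydroxylases, each was highest in the irradiated primary, and P4ha1 fell in the nodules against it. P4ha1, a catalytic subunit of collagen prolyl 4-hydroxylase, had levels of -0.52, -0.37 and -0.31 in the nodules, 0.93 in the irradiated and -0.67 in the non-irradiated primary. The irradiated primary was the high array, and P4ha1 fell 2.52-fold against it (log2 difference -1.33, SE 0.15, adjusted p = 0.027). Its difference from the non-irradiated primary was 0.27 (interval -0.12 to 0.66, adjusted p = 0.262). P4ha2, the other subunit, read 1.23, 1.17 and 1.12, with 1.90 in the irradiated and 1.16 in the non-irradiated primary, and differed by -0.73 (adjusted p = 0.0531) and 0.014 (adjusted p = 0.946). Plod2, a lysyl hydroxylase of collagen, read 2.00, 1.78 and 1.80, with 2.40 and 1.39 in the irradiated and non-irradiated primary. Its nodules lay between the primaries, without a call (-0.54 and 0.48, adjusted p = 0.125 and 0.0795).

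Ankrd37, a HIF target of little known function, had levels of -1.73, -2.28 and -2.36 in the nodules, -0.43 in the irradiated and 0.013 in the non-irradiated primary. All 3 nodules lay under both primaries. Ankrd37 fell 4.39-fold against the non-irradiated primary (log2 difference -2.13, SE 0.29, adjusted p = 0.0183), and its difference of -1.70 from the irradiated one did not pass (adjusted p = 0.0575). Bhlhe40, a transcriptional repressor of the circadian and hypoxia programmes, read -0.49 in nodule 1, -1.16 and -1.19 in nodules 2 and 3, -0.36 in the irradiated and 0.46 in the non-irradiated primary. It fell by 1.40 (SE 0.32, adjusted p = 0.0473) against the non-irradiated primary, with nodule 1 close to the irradiated one (difference -0.59, adjusted p = 0.363).

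Kdm3a, a histone demethylase, lay lower in all 3 nodules than in either primary (-0.94 and -0.66) and just missed the test in both (adjusted p = 0.0547 and 0.051). Mxi1, a Myc antagonist, had levels of 1.13, 1.14 and 1.12 in the nodules, 0.49 in the irradiated and 0.60 in the non-irradiated primary. On this probe the nodules lay together above both primaries, and Mxi1 rose by 0.53 (SE 0.12, adjusted p = 0.0428) against the non-irradiated one, with 0.64 (adjusted p = 0.0623) against the other. On the other 2 Mxi1 probes the difference from the irradiated primary was 0.18 and 0.22, and on the latter nodule 3 (-1.49) lay below that primary (-1.47). The mean of the Mxi1 probes passed in neither comparison (0.35, adjusted p = 0.252, and 0.52, adjusted p = 0.0672). The summed level of erythroid markers also was higher in the nodules than in either primary, though Klf1 and Ahsp did not follow the sum. The part of these markers was not tested. Ndrg1, a stress-induced gene, read -1.90 in nodule 1, -0.64 and -0.60 in nodules 2 and 3, 0.59 in the irradiated and -1.07 in the non-irradiated primary. The irradiated primary was high and nodule 1 low, with an SD of 0.74, and Ndrg1 did not pass (-1.64 and 0.028, adjusted p = 0.197 and 0.976). Without nodule 1, Ndrg1 passed against both (-1.21, adjusted p = 0.00335, and 0.46, adjusted p = 0.049), and without nodule 2 or 3 against neither (adjusted p from 0.244 to 0.883). Egln3, the prolyl hydroxylase that HIF itself induces, read -5.03, -5.31 and -5.70 in the nodules, -4.22 in the irradiated and -4.86 in the non-irradiated primary. The nodules were lowest, without a call (-1.12 and -0.49, adjusted p = 0.174 and 0.384). Adm, the vasodilator adrenomedullin, was the 1 target among these 15 whose nodules overlapped the irradiated primary, at 4.15, 5.03 and 4.90 against 4.52. The non-irradiated primary read 3.86 for Adm (difference 0.83, adjusted p = 0.185; without nodule 1 it was 1.1, adjusted p = 0.00263, and adjusted p = 0.334 and 0.302 without nodule 2 or 3).

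**Figure D4:**
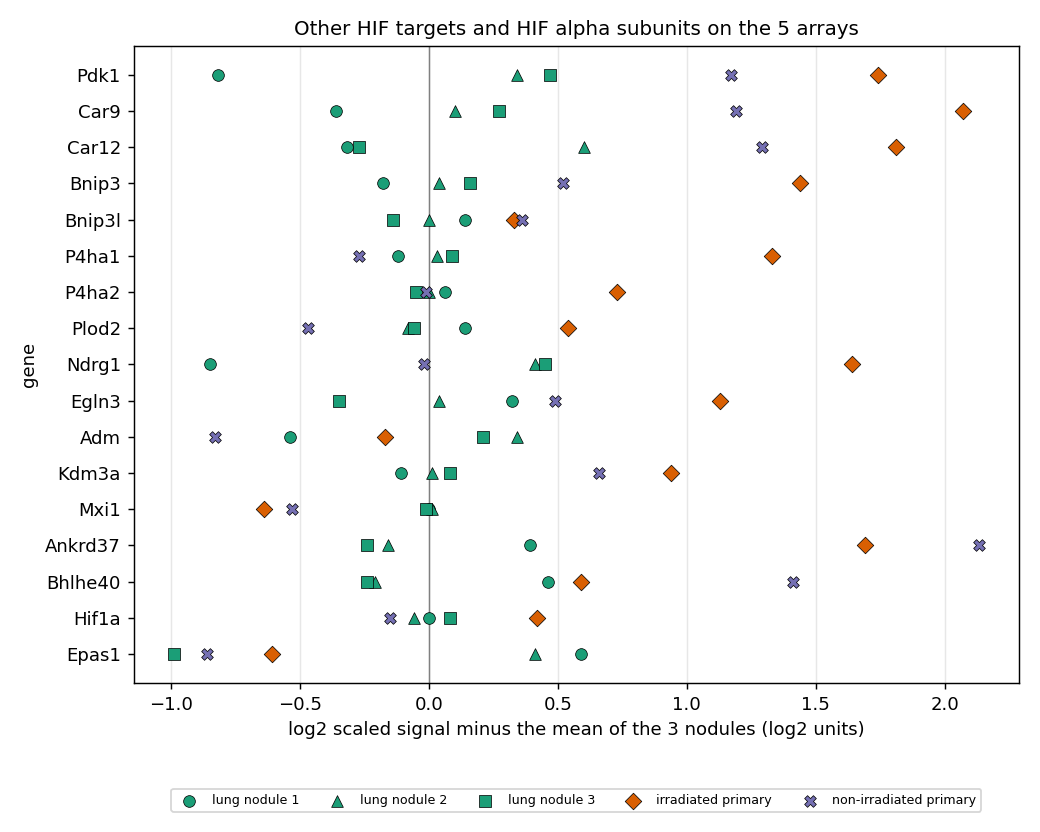
Level of 15 other HIF targets and 2 HIF alpha subunits on each array minus the mean of the 3 nodules, in log2 units; each point is 1 array (green: nodules 1 to 3; orange: irradiated primary; purple: non-irradiated primary). The irradiated primary lies to the right of every nodule for 13 of the 15 targets, Mxi1 lies to the left on both primaries, and Pdk1, Ndrg1 and Epas1 show the widest spread between nodules; Car12 was well above background on the irradiated primary alone.

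Hif1a and Epas1 encode the oxygen-sensitive alpha subunits HIF-1 alpha and HIF-2 alpha, which are controlled mainly as proteins. Hif1a had levels of -3.32, -3.38 and -3.24 in the nodules, -2.90 in the irradiated and -3.47 in the non-irradiated primary. The nodules lay between the primaries (differences -0.41 and 0.15, adjusted p = 0.321 and 0.631), with intervals of -0.94 to 0.12 and -0.38 to 0.68. Epas1 read -2.48 and -2.66 in nodules 1 and 2, -4.06 in nodule 3, -3.68 in the irradiated and -3.93 in the non-irradiated primary. Nodule 3 lay below both primaries and nodules 1 and 2 above them, and neither difference passed (adjusted p = 0.657 and 0.414). Epas1 is known as a gene of lung and endothelium; lung epithelial markers summed to 67.2, 19.7 and 0.416 and endothelial markers to 4.30, 2.31 and 1.45 in nodules 1, 2 and 3, and their part was not tested.

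Promoter sequences are shown for 5 targets that passed a test, 3 that fell with a match to the HIF core motif, 1 that fell without one and 1 that rose. HIF binds the core ACGTG or GCGTG, searched here on both strands in the 250 bases before the start site of RefSeq models (GRCr8); matches are in capitals, and CACGTG, which holds ACGTG on each strand, is also the E-box of other factors.
Bnip3, chr1:203154963-203155212, minus strand: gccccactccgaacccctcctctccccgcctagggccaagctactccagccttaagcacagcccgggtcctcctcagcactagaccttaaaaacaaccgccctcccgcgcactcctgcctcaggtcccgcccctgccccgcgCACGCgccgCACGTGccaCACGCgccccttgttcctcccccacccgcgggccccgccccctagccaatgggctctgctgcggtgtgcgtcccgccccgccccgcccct
P4ha1, chr20:27844796-27845045, plus strand: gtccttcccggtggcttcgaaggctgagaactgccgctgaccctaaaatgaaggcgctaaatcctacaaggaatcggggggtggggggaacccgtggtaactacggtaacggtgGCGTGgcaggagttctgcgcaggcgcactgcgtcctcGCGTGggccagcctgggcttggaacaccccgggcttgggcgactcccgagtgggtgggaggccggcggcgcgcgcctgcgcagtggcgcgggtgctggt
Ankrd37, chr16:53001257-53001506, plus strand: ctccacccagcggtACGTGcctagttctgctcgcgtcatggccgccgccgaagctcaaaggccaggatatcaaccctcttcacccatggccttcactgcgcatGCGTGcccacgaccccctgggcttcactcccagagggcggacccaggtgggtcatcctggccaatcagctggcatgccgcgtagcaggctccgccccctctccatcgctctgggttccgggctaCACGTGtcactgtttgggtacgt
Car9, chr5:62558774-62559023, plus strand: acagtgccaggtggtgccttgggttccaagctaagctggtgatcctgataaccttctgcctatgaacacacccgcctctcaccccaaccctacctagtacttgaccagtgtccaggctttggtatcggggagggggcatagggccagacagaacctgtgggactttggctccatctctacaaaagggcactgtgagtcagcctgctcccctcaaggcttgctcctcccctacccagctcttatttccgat
Mxi1, chr1:262348392-262348641, plus strand: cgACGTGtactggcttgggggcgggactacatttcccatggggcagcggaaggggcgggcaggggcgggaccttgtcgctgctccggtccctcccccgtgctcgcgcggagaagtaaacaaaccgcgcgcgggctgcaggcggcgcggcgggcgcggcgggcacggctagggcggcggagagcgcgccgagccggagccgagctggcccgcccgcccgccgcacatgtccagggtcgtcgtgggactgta
In Bnip3 the 4 matches lay 90 to 108 bases before the start and in P4ha1 the 2 matches at 99 and 136, while Ankrd37 had 4, at 22 to 236 bases. The single match of Mxi1, at 248 bases, sat in a window of a gene that rose, and the Car9 window held none.

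A promoter window was found for 32 of the 35 members, 37 windows in all. Of these 23 (62.2%) held ACGTG or GCGTG on either strand, against 53.3% of 9563 windows of genes tested here and 36.7% of all 33469 windows. ACGTG was found in 16 (43.2%), against 21.3% and 16.6%, GCGTG in 15 (40.5%), against 42.3% and 25.9%, and CACGTG in 6 (16.2%), against 7.9% and 5.59%. The members' windows held a median of 18 CG dinucleotides, those of genes tested 15 and all windows 5, and both motifs contain CG. A match describes the letters of the window and not a bound site.

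Genes of the same pathways outside the set gave further values. Of 21 further HIF targets tested, 6 fell and 0 rose against the irradiated primary (median -1.16), where 2.81% of all features fell and 0.909% rose. Against the non-irradiated one 4 fell and 3 rose (median 0.023), where 8.85% and 9.72% did. Ero1a, the oxidase of disulfide formation, lay at 0.90, 1.02 and 1.19 in the nodules, 2.59 in the irradiated and 1.87 in the non-irradiated primary. Ero1a fell against both, like Car9 (log2 differences -1.56 and -0.83, adjusted p = 0.0199 and 0.0309), and so did the glucose transporters Slc2a1 and Slc2a3 (-2.96 and -2.40 against the irradiated primary, adjusted p = 0.0139 and 0.0357, and -1.80 and -2.20 against the other, adjusted p = 0.0179 and 0.0186). Angptl4, a lipase inhibitor, fell against the irradiated primary (-2.74, adjusted p = 0.011) and rose against the non-irradiated one (0.96, adjusted p = 0.0369). Higd1a fell against the non-irradiated primary (-1.24, adjusted p = 0.0497), while the mTOR inhibitor Ddit4 and the collagen crosslinker Loxl2 rose against it (1.01 and 1.1, adjusted p = 0.0186 and 0.0166).

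Of 12 other glycolysis isozymes and side enzymes tested, 0 passed against the irradiated primary by limma, with 3 at an unadjusted p under 0.05, as had 4153 of all 18913 features. Against the non-irradiated one 2 fell and 2 rose, beside 8.85% and 9.72% of all features. Eno3, the muscle enolase, lay at 4.73, 4.91 and 4.80 in the nodules, 4.79 in the irradiated and 3.65 in the non-irradiated primary. As with Pfkm the non-irradiated primary was the low array (1.17, adjusted p = 0.0134). Pgam2, the muscle mutase, lay at -5.22, -5.11 and -2.45 in the nodules, 1.00 in the irradiated and -1.55 in the non-irradiated primary, in the order of the skeletal muscle markers, and did not pass (adjusted p = 0.0938 and 0.176). Adpgk rose, and Bpgm, the erythrocyte bisphosphoglycerate mutase, and Pfkfb1 fell, against the non-irradiated primary (0.59, -1.13 and -1.59, adjusted p = 0.0361, 0.0132 and 0.0244).

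Pyruvate oxidation and the citric acid cycle gave 1 rise and 0 falls among 25 genes against the irradiated primary (median 0.12). Over all features 0.909% rose and 2.81% fell in that comparison. The rise was that of the phosphatase Pdp2, which reactivates pyruvate dehydrogenase (0.80, limma adjusted p = 0.0468). Against the non-irradiated primary 5 rose, beside 9.72% of all features, and 0 fell, beside 8.85% (median 0.20). Ogdh, Cs and Fh rose by 1.29, 1.1 and 0.67 (adjusted p = 0.0126, 0.0128 and 0.0462). Pdk4, dim in the non-irradiated primary, was 1.65-fold higher in the nodules by the approximate bound used for Car12 (limma adjusted p = 0.0423). Among 12 HIF regulators tested, 0 passed against the irradiated primary by limma (3 at an unadjusted p under 0.05, beside 4153 of all 18913 features). Against the non-irradiated one, where 9.72% of all features rose and 8.85% fell, the HIF hydroxylase Hif1an and the ligase subunit Rbx1 rose (1.52 and 1.25, adjusted p = 0.0249 and 0.0143), and Vhl and the ligase Siah1 fell (-0.62 and -0.70, adjusted p = 0.0365 and 0.0345).

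The members varied between nodules about as much as other features did. Their median SD over the 3 nodules was 0.17, against 0.16 over all features, with 0.15 for glycolytic enzymes and 0.32 for the other HIF targets. The nodules spanned at least 2-fold for 4 of 35 members, Aldoc, Pdk1, Ndrg1 and Epas1, where 9.22% of all features did. Nodule 1 was the low one for Aldoc, Pdk1 and Ndrg1, and nodule 3 for Epas1.

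The calls rest on few arrays. Of the 11 member calls, those of Hk2 against the irradiated and of Pfkm and Ankrd37 against the non-irradiated primary held in all 9 other processing settings. All 11 were lost without nodule 2 (adjusted p from 0.0593 to 0.207), where limma called 0 features in either comparison (2690 and 4987 at an unadjusted p under 0.05). Without nodule 3, Pfkm alone kept its call (adjusted p = 0.0421), and without nodule 1 the call of Pgam1 was lost (adjusted p = 0.0856) while 17 members fell against the irradiated primary. The nodule arrays shared 1 row of the slide and the primaries the other, so row and tumour site cannot be told apart. Against the non-irradiated primary the nodules also differed in irradiation, which cannot be told apart from site or row in that comparison.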

How the data were processed

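RNA of the 5 samples was hybridised to 1-colour (Cy3) Agilent rat arrays, 1 array per sample. The deposited intensity values are spot signals from Agilent Feature Extraction 11.0, per the submitters' processing notes, with background subtracted and trends removed within each array per the file headers. The deposited spot flags are other values of 0 or 1, per the file headers. The deposited matrix holds log2 values of the authors with equal column medians of 9.74, made in a way that is not given in the sources used here.

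Outlier spots were left out, log2 signals were averaged per probe, and the 75th percentile of each array was subtracted. Of 30367 probes 30363 were usable on all arrays and 18354 had a gene symbol. A probe was well above background on an array where over 0.5 of its spots were. Probes so on all arrays of at least 1 group were tested, the brightest per gene (18913 features). Spots well above background made up 69.8 to 73.5% of those for genes, with 0 saturated; the number of arrays limits the precision.

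Nodules were set against each primary with limma 3.58.1 in R 4.3.3 (3 group means, intensity trend, Benjamini-Hochberg over all features, threshold 0.05). The script was tested on simulated data. Between the primaries a log2 difference of 1 or more was counted, with no test. A lower bound raises dim arrays to their lowest level well above background. A dim probe can read above that level, as Car12 did on the non-irradiated primary (-5.91, against -6.12), so the bound is approximate. Values on all arrays are given for every member called, every member 2-fold apart between the primaries and a set of paralogues. Of each pathway list up to 4 called genes with the largest difference each way are named. A pathway gene that this rule names is not reported here. Values of Gpi, Tpi1, Gapdh, Pgk1, Pkm, Ldha, Pdk1, Kdm3a, Adm and Pgam2 and the promoters printed were added outside this rule, after their values were seen. The members, the lists (glycolysis isozymes, HIF targets, HIF regulators, pyruvate oxidation, and skeletal muscle, cardiac, erythroid, lung, macrophage, endothelial and glial markers) and the tests were chosen with earlier results of these data known. Alternatives were other background corrections, scalings, filters, probe choices and variance models, the deposited matrix, and leaving out each nodule.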

Additional observations from a re-analysis of the deposited data

How the results depend on the processing

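The direction of every one of the 11 member calls was kept under all 9 processing settings and without any of the 3 nodules; 8 calls were lost in at least 1 setting, and the cause was not tested. Of 59 member differences without a call, 11 gained one in some processing setting and 21 without nodule 1. Leaving out nodule 1 also raised the calls over all features, as given for Aldoc.

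Against the irradiated primary, 5 members fell. The count was 12 with normexp background correction, 10 with the percentile taken over probes above background on all arrays, and 1 with array median scaling and also without an intensity trend. Leaving out 1 nodule gave 0 to 17 members that fell and 0 to 1 that rose. The median of the other HIF targets (-1.12) was -0.68 with normexp, -1.01 with quantile normalization and on the deposited matrix, and -1.03 with array median scaling and on probes above background on all arrays; without 1 nodule it was -1.21 to -0.98. The median of glycolytic enzymes (-0.59) was -0.50 with array median scaling and -0.64 to -0.58 without 1 nodule. Over all features, 532 fell and 172 rose. With normexp 726 fell, and 628 fell with the percentile over probes above background on all arrays. With array median scaling 322 fell. Without an intensity trend 324 fell and 75 rose, and 114 rose without a filter on dim probes. Without 1 nodule 0 to 1846 fell and 0 to 1341 rose.

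Against the non-irradiated primary, 3 members fell and 3 rose. Only 1 rose with quantile normalization, with the percentile over probes above background on all arrays, without a filter, on the deposited matrix and without a trend, and 1 fell without a filter and without a trend. Without 1 nodule 0 to 7 fell and 0 to 6 rose. The median of the other HIF targets (-0.49) was -0.31 with normexp and -0.50 to -0.31 without 1 nodule; that of glycolytic enzymes (-0.034) was -0.16 with the mean of all probes and -0.14 to -0.020 without 1 nodule. Over all features 0 to 3084 fell and 0 to 3322 rose without 1 nodule. The differences of 5 uncalled members, at most 0.038 in size, changed sign. Hk1 read 0.0024 with normexp and -0.15 to 0.021 without 1 nodule (0.014 without nodule 2). Pfkfb3 read 0.00017 with quantile normalization and -0.19 to 0.16 without 1 nodule. Pkm read 0.0029 with array median scaling and -0.094 to 0.068 without 1 nodule. P4ha2 read -0.029 with quantile normalization, -0.033 with the other percentile, -0.030 on the matrix and -0.016 to 0.041 without 1 nodule. Ndrg1 read -0.0061, -0.018 and -0.0035 in the same 3 settings and -0.20 to 0.46 without 1 nodule (-0.17 without nodule 2).

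Between the primaries 1718 features were at least 2-fold higher and 1317 lower; with normexp these were 806 and 686, and on the deposited matrix 1093 were higher. The median of the other HIF targets (0.64) was 0.43 with normexp, 0.55 with quantile normalization and 0.56 with array median scaling. No paired analysis was possible because each primary is 1 array. Of the members Car12 alone was dim on an array.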
